A study of Arabidopsis thaliana with 7 samples.

Results

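The plastid-encoded genes are the genes that Arabidopsis thaliana reads from the chloroplast's own genome. They were taken as every probe set with 1 gene in the platform annotation whose RefSeq locus tag begins ArthCp, which gave 69 genes of the 84 that RefSeq lists for the plastid in its TAIR10.1 gene table. Each of the 69 had 1 probe set, so they make up 69 of 22746 probe sets of plant genes on the ATH1 array. Another 8 probe sets are assigned to several plastid genes and were not used here. The choice rested on annotation, not on signal. All 69 passed the filter on low signal and were tested.

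A chloroplast keeps a small genome that encodes the core proteins of both photosystems, the cytochrome b6f complex, the ATP synthase, the NDH complex of cyclic electron flow and part of the plastid's own ribosome and RNA polymerase. Each of these complexes also holds subunits encoded in the nucleus and imported. Most plastid genes lie in clusters that are transcribed together and then cut and spliced. A bacterial-type polymerase, whose core is encoded by the plastid rpo genes, transcribes mainly photosynthesis genes, and nucleus-encoded polymerases of the phage type transcribe mainly housekeeping genes such as the rpo genes themselves.

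Signals came from 7 arrays of untreated 2-week-old seedlings grown at 22 °C on MS agar with 3% sucrose and 16 h of light a day. Wild type was Col-LUC on 4 arrays and C24-LUC on 1 array, Col and C24 being natural strains, and the mutant was sta1 on 2 arrays. The title of the study calls STA1 a nuclear protein and ties it to splicing of mRNA precursors. The labels do not spell out LUC and give neither the allele nor the strain of sta1, and they leave unsaid whether arrays of a group had separate cultures. P-values therefore measure no more than how far these arrays differ among themselves, and that spread may be technical.

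Some labels and records disagree. For both sta1 samples the growth text speaks of the mutant ice1, and the experiment record of Col-LUC 2 carries a comment that lists wild type and other lines with an abscisic acid treatment. The titles, which give sta1 and no treatment, were followed. The level of STA1 was not analysed here. Both sta1 arrays came from the chip lot of Col-LUC 1, and sta1 1 was also hybridised in its session. The record of Col-LUC 4 is blank. Green tissue was well represented on every array: RCA, the Rubisco activase, had signals between 12285 and 15664. PYK10, a root and seedling protein, had signals between 9533 and 13976, so root was present as well. PAP85, a seed storage protein, reached at most 84.8. Flower markers were not analysed here.

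Signals of the plastid genes were among the brightest on the array. Between 47 and 50 of the 69 lay in the top 5% of probe sets on each array, and between 19 and 25 in the top 1%. The median plastid signal was 4219 on sta1 1, 5294 on sta1 2, 5066, 5551, 5631 and 6103 on Col-LUC 1 to 4, and 5728 on C24-LUC. Probe sets differ in how well they bind, so a brighter probe set does not mean more transcript than a dimmer probe set has. Differences in signal are taken here only between arrays.

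The 4 Col-LUC arrays agreed closely in most of these genes. The median SD of log2 signal over the Col-LUC arrays was 0.20 for the 69 genes and 0.24 for all 15673 tested probe sets. In 50 genes the highest Col-LUC signal was under 1.5-fold the lowest. The narrowest range was that of ndhI, at 1.04-fold, and the widest that of ndhF, at 2.58-fold. The 38 genes with a mean signal over 5000 had a median SD of 0.14, while the 31 dimmer genes had 0.28. Over all 509 tested probe sets with a mean signal over 5000 the median SD was 0.17. The brighter genes thus had the smaller spread.

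Comparing sta1 with wild type asks whether a mutant in a nuclear splicing protein differs in array signal for genes of the chloroplast genome. How well labelling captured chloroplast transcripts was not tested. With limma on log2 signals, 0 of the 69 genes had an adjusted p under 0.05, against 1.31% of all tested probe sets, and the smallest adjusted p among them was 0.0785. At an unadjusted p under 0.05 there were 9, or 13.0%, against 23.5% of all tested probe sets. Of these 9, 7 were lower in sta1 (11.9% of all tested probe sets were) and 2 were higher (11.6%). The median difference was -0.06 on the log2 scale, against 0.01 for all tested probe sets, with 42 of the 69 genes negative. In bulk seedlings a smaller amount of a chloroplast transcript per cell cannot be told apart from fewer green cells or fewer chloroplasts.

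The medians of the functional groups differed. Photosystem II genes had the lowest median difference, -0.31, with 14 of 15 members negative, against 49.2% of all tested probe sets. The ATP synthase had -0.20 with 6 of 6 negative, and photosystem I had -0.13 with 4 of 5. The NDH genes had -0.06, the RNA polymerase genes -0.06 and the remaining genes -0.01. Leaving out 1 array at a time turned the sign of each of these, with ranges of -0.06 to 0.0011, -0.10 to 0.083 and -0.07 to 0.043. The cytochrome b6f genes lay at 0.09, the large ribosomal subunit at 0.03 and the small ribosomal subunit at 0.08, where only 1 of 8 members was negative. The sign also turned for cytochrome b6f (-0.025 to 0.37) and the large ribosomal subunit (-0.15 to 0.044) when 1 array was left out. Over the Col-LUC arrays, group medians had SDs from 0.069 (ATP synthase) to 0.29 (RNA polymerase), with 0.20 for photosystem II. The 26 psa, psb and pet genes, 15 of them psb, together had a median of -0.25 and the 19 rpl, rps and rpo genes one of 0.03. These medians describe the groups and were not tested against each other.

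**Figure D1:**
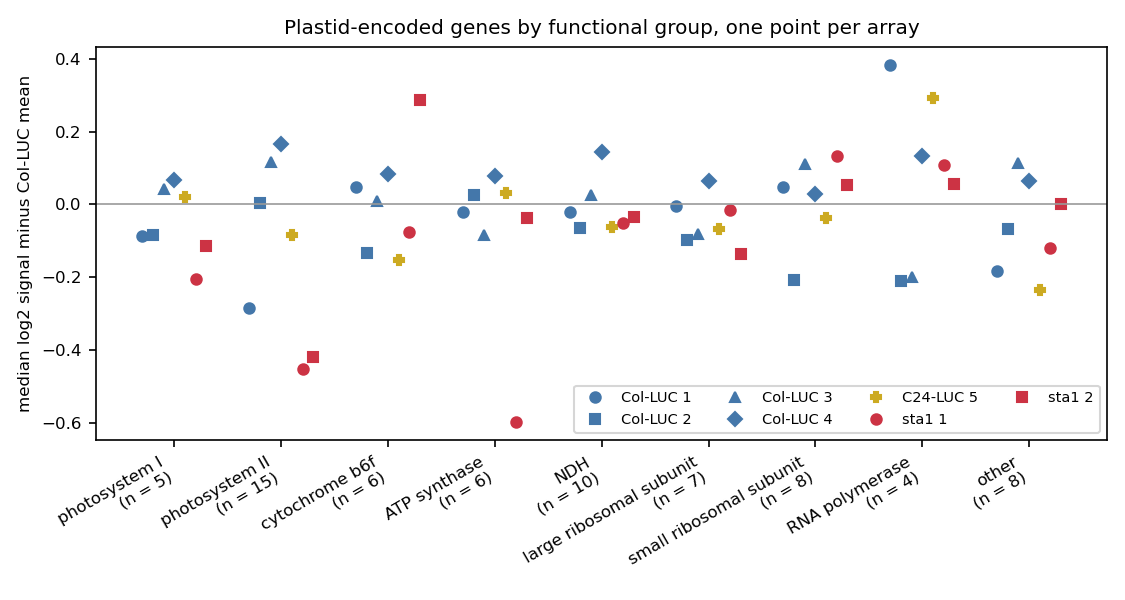
Median log2 signal minus the Col-LUC mean (y axis) for each functional group of plastid-encoded genes (x axis, number of genes in brackets), with 1 point for each of the 7 arrays. In photosystem II the sta1 arrays lie at -0.45 and -0.42 and Col-LUC 1 at -0.28, below the other Col-LUC arrays, and in the ATP synthase only sta1 1 lies apart, at -0.60.

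Photosystem II is the complex that splits water, and 5 of the 7 genes that were lower at an unadjusted p under 0.05 belong to it. They are 5 of its 15 genes, against 11.9% of all tested probe sets. Relative to the Col-LUC mean, the median over the 15 psb genes was -0.45 on sta1 1 and -0.42 on sta1 2. It was -0.28 on Col-LUC 1, 0.00 on Col-LUC 2, 0.12 on Col-LUC 3, 0.16 on Col-LUC 4 and -0.08 on C24-LUC. The array that shares the chip lot with sta1 was therefore the lowest Col-LUC array, and it lay below the other Col-LUC arrays in 12 of the 15 genes, against 30.5% of all tested probe sets. Both sta1 arrays lay below Col-LUC 1 in 10 of the 15, against 37.3% of all tested probe sets. Between sta1 1 and Col-LUC 1, hybridised in 1 session, the median was -0.21 with 13 of 15 members lower in sta1. Over all tested probe sets 7820 of 15673 were lower. A block for chip lot, which in effect sets both sta1 arrays against Col-LUC 1 alone, gave -0.15, and leaving out Col-LUC 2 gave -0.28. With that block psbB differed by -0.45, psbE by -0.64, psbD by -0.38, psbM by -0.15 and psbH by -0.14. Of 5 markers of green shoot, 2 were tested. LHCB4.1, a nuclear antenna protein of photosystem II, fell by 0.68 ± 0.11 (limma adjusted p = 0.0360). Its call held in 7 of 19 alternatives, not all of them distinct fits. With the lot block its difference was -0.43 (adjusted p = 0.266). RCA differed by -0.21 ± 0.09. Their summed signal was 23545 to 25465 in sta1 and 30925 to 35671 in wild type, and neither was at 0. The 3 tested root markers of 5 summed to 9906 to 11490 in sta1 and 10294 to 14437 in wild type. Nearly all of that sum was PYK10, which differed by -0.19 ± 0.16. The dim EXPA7 differed by 0.19 ± 0.39 and the dim EXPA18 by -0.31 ± 0.34. The part of tissue makeup in the photosystem II result was not tested.

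psbB encodes CP47, an inner antenna protein of photosystem II. Its signals were 1824 on sta1 1 and 3171 on sta1 2, against 3289, 4536, 5814 and 5154 on Col-LUC 1 to 4 and 5728 on C24-LUC. Both sta1 arrays lay below every wild-type array, although sta1 2 and Col-LUC 1 were close. Mean log2 signal was 11.23 ± 0.56 (SD, n = 2) in sta1 and 12.23 ± 0.34 (SD, n = 5) in wild type. That is 2.00-fold lower, with a standard error of 0.27 on the log2 scale and a limma adjusted p of 0.0939.

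psbE encodes the alpha subunit of cytochrome b559. Its signals were 3479 and 3346 in sta1, against 5326, 7707, 8361 and 9513 in Col-LUC and 4563 in C24-LUC. The sta1 arrays nearly coincided and lay below all wild-type arrays, with C24-LUC the next lowest. It was 2.00-fold lower in sta1, with a standard error of 0.28 on the log2 scale and a limma adjusted p of 0.0957.

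psbD encodes D2, a protein of the reaction centre. It had signals of 4233 and 4887 in sta1, of 5900, 8772, 7985 and 8057 in Col-LUC and of 5314 in C24-LUC. Here too the groups did not overlap, and the difference was -0.64 ± 0.21 (limma adjusted p = 0.128). psbC, which encodes the inner antenna protein CP43 and is transcribed with psbD, had 9479 and 8320 in sta1 and 9724 to 12929 in Col-LUC, but 8052 in C24-LUC, so its groups overlapped.

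The brightest psb gene, psbM, encodes a small membrane subunit. It had signals of 11803 and 13664 in sta1, of 14139, 15748, 15178 and 15469 in Col-LUC and of 14801 in C24-LUC. Its difference was small, -0.25 ± 0.09, yet both sta1 arrays lay below all wild-type arrays (limma adjusted p = 0.170). After quantile normalization it was -0.086 with an adjusted p of 0.621. psbH, for another small subunit, was at 5991 and 6449 in sta1 against 6868 to 8444 in wild type, a difference of -0.26 ± 0.11 (limma adjusted p = 0.210). In all, 5 of the 15 psb genes had both sta1 arrays below every wild-type array. Among all 69 genes there were 9, or 13.0%, against 15.6% of all tested probe sets.

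psbA encodes D1, the reaction centre protein that is replaced most often in light. Its signals were 4134 and 4135 in sta1, 3746, 6831, 5131 and 6699 in Col-LUC and 5863 in C24-LUC. Col-LUC 1 was the lowest of all 7 arrays, so the groups overlapped, and the difference was -0.42 ± 0.23. The exceptions among the psb genes were psbK and psbI, with differences of 0.06 and -0.01 that average 2 unlike sta1 arrays. psbK had a signal of 3649 on sta1 1 and 9463 on sta1 2, and psbI had 2683 and 5371.

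**Figure D2:**
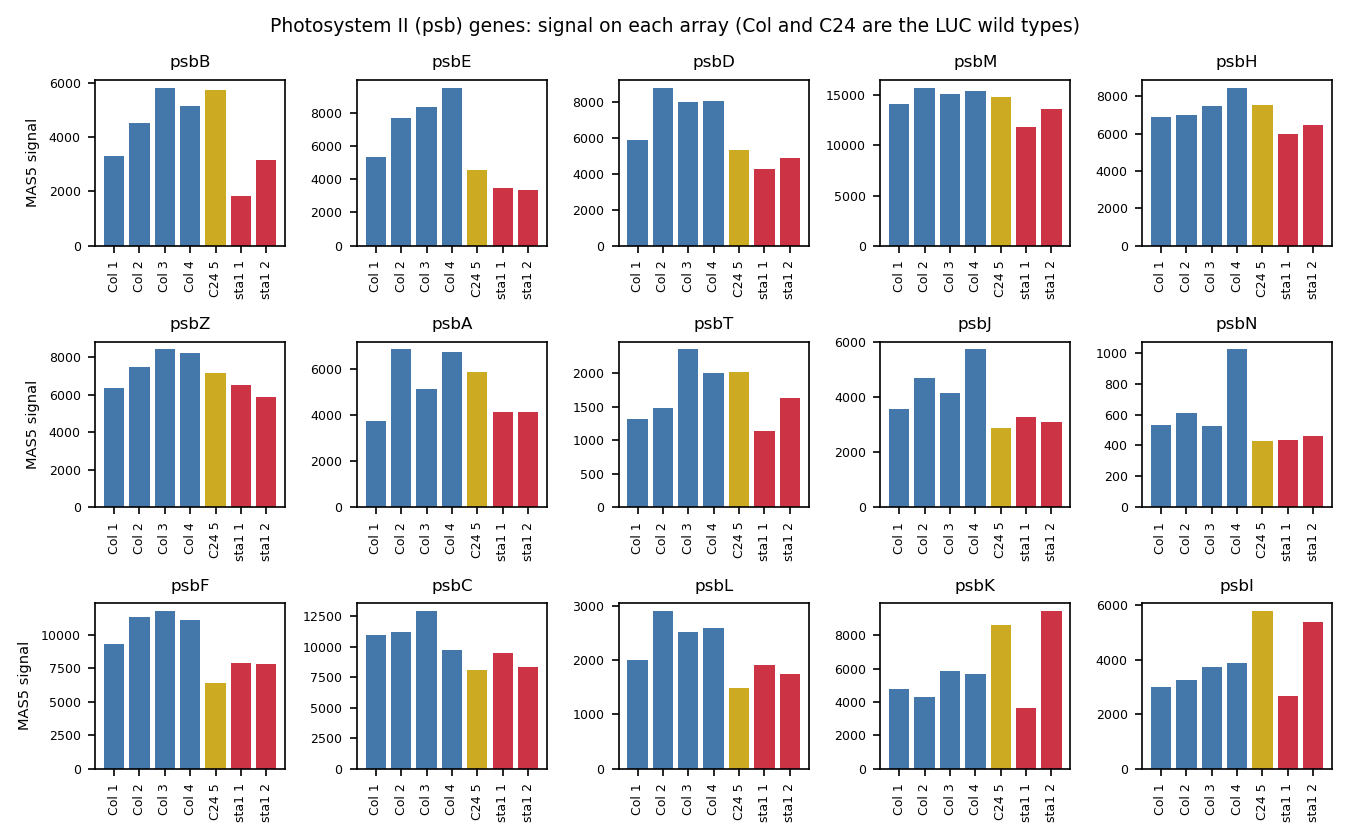
MAS5 signal (y axis, linear, from 0) of the 15 photosystem II genes on each of the 7 arrays (bars; blue Col-LUC, yellow C24-LUC, red sta1), ordered by p in the comparison of sta1 with wild type. In psbB, psbE, psbD, psbM and psbH both sta1 bars lie below all wild-type bars, while psbK and psbI are high on C24-LUC and sta1 2 and low on sta1 1.

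Photosystem I, which reduces ferredoxin, differed less. psaB, the brightest of its 5 genes and 1 of the pair of large reaction centre proteins, had signals of 17258 and 15547 in sta1 and 15645 to 17517 in wild type. psaC, the subunit that carries iron-sulphur clusters, had 1426 and 1813 in sta1, against 1848, 2019, 1689 and 2363 in Col-LUC and 2034 in C24-LUC, a difference of -0.30 ± 0.17. psaA, the partner of psaB, differed by -0.13 ± 0.11. For none of the 5 did the sta1 arrays leave the wild-type range together.

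Among the cytochrome b6f genes, which link the photosystems, petL was lower on both sta1 arrays than on any wild-type array, with 4219 and 3266 against 4310 to 5049. Its difference was -0.32 ± 0.14 (limma adjusted p = 0.202). petB, the cytochrome b6 gene and the brightest of the group, had 13826 and 12004 in sta1 and 13592 to 15525 in wild type. petD had 319 on sta1 1 and 509 on sta1 2, against 331, 259, 325 and 327 in Col-LUC and 265 in C24-LUC. petN had 493 and 831 in sta1, against 336 to 632 in wild type. petG had 345 and 749 in sta1, against 298 to 441 in Col-LUC and 1066 in C24-LUC. In these 3 dim genes sta1 2 was high and sta1 1 was not, and their differences of 0.43, 0.49 and 0.17 rest on that array.

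All 6 ATP synthase genes had negative differences, but in atpA, atpF, atpH and atpI the 2 sta1 arrays were far apart. Relative to the Col-LUC mean the group's median was -0.60 on sta1 1 and -0.04 on sta1 2, and the Col-LUC arrays spanned -0.08 to 0.08. atpA, the alpha subunit of the catalytic head, had signals of 5746 on sta1 1 and 9437 on sta1 2, against 9855, 10061, 8182 and 10525 in Col-LUC and 10921 in C24-LUC. atpF, a subunit of the stalk, had 2839 and 5294, against 4397 to 6599 in wild type. atpI and atpH, of the membrane part, were likewise lower on sta1 1, at 897 and 6874, than on sta1 2, at 1414 and 9872. These 4 genes are transcribed together with rps2, whose signals were 5505 and 5299. The other cluster, atpB and atpE, did not show the gap, with 18081 and 17084 for atpB, the brightest of the group, and 15637 and 14679 for atpE. The group's median difference was -0.50 without sta1 2 and -0.04 without sta1 1.

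The 2 sta1 arrays were far apart in a minority of these genes. The median absolute log2 difference between them was 0.156 over the 69 genes and 0.154 over all tested probe sets. In 59 of the 69 genes they differed by under 1.5-fold. psbB, atpA, atpF, atpI, petN, petD and ycf3 lay between 1.5-fold and 2-fold, with sta1 2 the higher. For psbB the difference from wild type was -1.40 without sta1 2 and -0.60 without sta1 1. In 3 genes, psbK at 2.59-fold, petG at 2.17-fold and psbI at 2.00-fold, the sta1 arrays differed by at least 2-fold. That is 4.35% against 1.23% of all tested probe sets. In all 3 sta1 2 was the higher. The control probe set for 25S rRNA was also higher on sta1 2, at 1880, than on sta1 1, at 476. It was 1987 on Col-LUC 2, where these genes were not high, and 509 on C24-LUC, where they were. Its part in the result was not tested.

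The NDH genes held the largest single difference. ndhF encodes a membrane subunit of the complex, and its probe set was dim. Its signals were 275 and 361 in sta1, against 131, 54.5, 135 and 141 in Col-LUC and 72.9 in C24-LUC. Every wild-type array lay below the lower sta1 array, and the difference was 1.66 ± 0.40, or 3.16-fold (limma adjusted p = 0.0785). With signals floored at 100 in place of 50 the difference was 1.39 with an adjusted p of 0.0222, so its call depends on the floor. It was 1.07 between sta1 1 and Col-LUC 1.

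ndhD, another membrane subunit, went the other way. Its signals were 4143 and 4204 in sta1, 4626, 5961, 5201 and 6143 in Col-LUC and 5843 in C24-LUC, which put sta1 below every wild-type array. The difference was -0.40 ± 0.14 (limma adjusted p = 0.133), and -0.15 with the lot block. ndhC had 6699.8 and 6556 in sta1 against 6700.1 to 7798 in wild type, so its groups only just parted. The brightest gene of the group, ndhI, had 12587 and 11400 in sta1 and 11575 to 12614 in wild type.

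Genes of the plastid ribosome lay near wild type. The exception was rps14, a protein of the small subunit, with 342 and 479 in sta1, against 349, 191, 150 and 222 in Col-LUC and 211 in C24-LUC. sta1 1 and Col-LUC 1, of the same session, had nearly equal signals here, and the difference of 0.91 ± 0.31 (limma adjusted p = 0.135) was -0.03 between them and 0.21 with the lot block. rps14 is transcribed with psaA and psaB, whose differences were -0.13 and -0.05. rps18 had 2241 and 2240 in sta1 and 1453 to 2451 in wild type. rps4, the brightest of the 8, had 9330 and 8865 in sta1 and 7157 to 11163 in wild type.

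In the large subunit, rpl32 was the only gene with both sta1 arrays above all wild-type arrays, at 5288 and 4941 against 3853 to 4722, a difference of 0.23 ± 0.12. With ndhF it was 1 of 2 such genes among the 69, or 2.90%, against 16.7% of all tested probe sets. Among the 69 genes in genome order, rpl32 is next to ndhF. rpl14 differed by -0.20 ± 0.15. rpl16, which carries an intron and was the brightest of the 7, had 12593 and 10965 in sta1 and 11354 to 13908 in wild type.

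The 4 subunits of the plastid RNA polymerase had differences smaller than their errors. rpoA had 8050 and 7322 in sta1, against 9855 on Col-LUC 1, 5390, 5631 and 5413 on Col-LUC 2 to 4 and 8600 on C24-LUC. rpoB had 694 and 724 in sta1 against 873, 568, 483 and 780 in Col-LUC. rpoC1 had 3676 and 3419 against 3380 to 4910 in wild type, and rpoC2 had 2111 and 1885 against 1645 to 2456. In all 4 both sta1 arrays lay inside the wild-type range. Their differences were 0.19 ± 0.26, -0.17 ± 0.43, -0.14 ± 0.17 and 0.03 ± 0.18 in that order.

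Of the remaining 8 genes, rbcL encodes the large subunit of Rubisco, the enzyme that fixes carbon dioxide. It had 3498 and 3901 in sta1 against 2830 to 3807 in wild type, a difference of 0.16 ± 0.15. accD, a subunit of the acetyl-CoA carboxylase of fatty acid synthesis, had 2977 and 3131 in sta1 against 3221 to 4115 in wild type. Its difference was -0.24 ± 0.14, with both sta1 arrays below all wild-type arrays. clpP, the plastid subunit of the Clp protease and the brightest of these 8, had 9529 and 9857 in sta1 and 8908 to 10045 in wild type. Of all 69 genes, 9 carry introns, which are removed inside the plastid. Their median difference was -0.01 with 0 at an unadjusted p under 0.05, against a median of -0.06 for the 60 genes without introns.

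**Figure D3:**
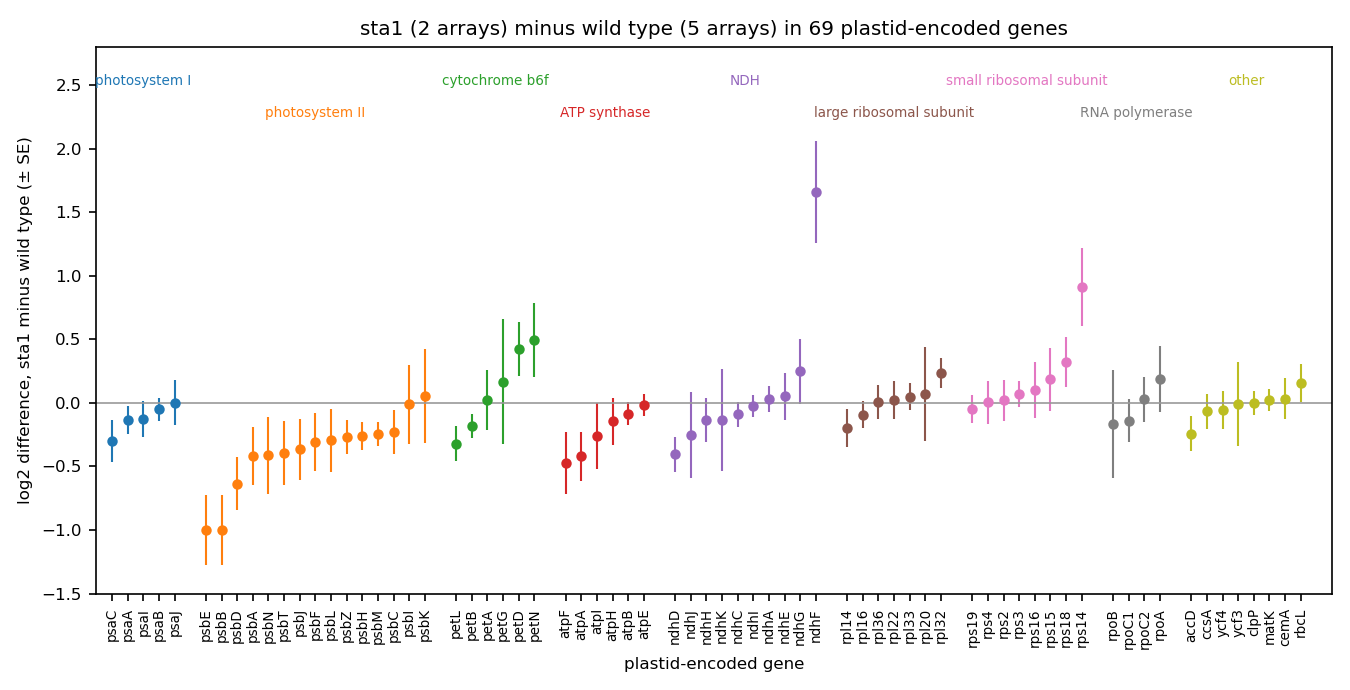
Log2 difference of sta1 (2 arrays) minus wild type (5 arrays) for each of the 69 plastid-encoded genes (points; bars are standard errors), grouped by function and ordered by size within each group. ndhF stands highest at 1.66, psbE and psbB lowest, each 2.00-fold lower in sta1, and 14 of the 15 photosystem II genes lie below 0.

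Leaving out Col-LUC 1 changed the count. Without it, 4 of the 69 had an adjusted p under 0.05 (5.8%), while 8.87% of all tested probe sets did. These were psbB (-1.14, limma adjusted p = 0.0311), ndhD (-0.47, 0.0437), ndhF (1.76, 0.0471) and rps14 (1.08, 0.0364). Without any other single array the count stayed at 0. Over all alternatives the adjusted p ran from 0.0234 to 0.595 for psbB, from 0.0217 to 0.525 for ndhD, from 0.0120 to 0.523 for ndhF and from 0.0248 to 0.736 for rps14. Set against Col-LUC alone, in a fit of 3 groups, sta1 had 0 calls among the 69 (1.26% of all tested probe sets), and the psb median was -0.40. Leaving out Col-LUC 1 from that comparison gave 12, or 17.4%, against 17.9% of all tested probe sets.

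Nuclear genes whose products join the plastid-encoded ones were set beside them. From 9 lists of 116 genes, 21 had a probe set with 1 gene, and all 21 were tested. The list of proteins bound to the plastid RNA polymerase had none. Of the 21, 3 fell (14.3%, against 0.766% of all tested probe sets) and 0 rose. A negative difference was found in 18 (85.7%, against 49.2%), with a median of -0.30. PSAN of photosystem I fell by 2.09 ± 0.19 (limma adjusted p = 0.00642). AT2G26500, the PetM subunit of cytochrome b6f, fell by 0.92 ± 0.16 (limma adjusted p = 0.0395). PSBW of photosystem II fell by 0.81 ± 0.14 (limma adjusted p = 0.0421). All 3 calls were lost with chip lot as a block, with adjusted p between 0.266 and 0.323 and differences of -1.78, -0.76 and -0.59, with the replicate block, and without either sta1 array. Over 19 alternatives PSAN passed in 15, and AT2G26500 and PSBW in 8 each. These were not all distinct fits. Using all probe sets of the plastid genes repeats the main fit, and leaving out C24-LUC repeats Col-LUC alone as wild type. AT2G26500 had signals of 7632 and 5328 in sta1, against 10788, 13405, 11199 and 13523 in Col-LUC and 11710 in C24-LUC. Between sta1 1 and Col-LUC 1 the median of the 21 was -0.21.

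The other partner lists held 0 calls. NdhS, a nuclear subunit of the NDH complex, had signals of 852 and 898 in sta1, against 1477, 3322, 1869 and 3303 in Col-LUC and 1879 in C24-LUC, a difference of -1.36 ± 0.33 (limma adjusted p = 0.0776). NdhN differed by -0.56 ± 0.23. ATPC1, the gamma subunit of the plastid ATP synthase, differed by -0.31 ± 0.11 and its relative ATPC2 by 0.05 ± 0.32. The 8 nuclear proteins of the plastid ribosome all had negative differences, with a median of -0.25. AT2G43030, a protein of the large subunit, differed by -0.35 ± 0.11 and AT1G29070 by -0.29 ± 0.10. The Clp subunits AT1G09130 and CLPP4 differed by -0.20 ± 0.19 and 0.09 ± 0.12. AT5G15700, an organellar RNA polymerase of the phage type, had signals of 187 and 218 in sta1 against 112 to 187 in wild type, a difference of 0.58 ± 0.23.

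Setting C24-LUC against Col-LUC asks how far the wild-type strains differ in these genes. Only 1 array stands for C24-LUC, from a lot that no other array with a recorded lot shared. The lot of Col-LUC 4 is not known. Strain, array and lot cannot be told apart. In a fit of 3 groups that assumes the lone array to vary like the others, 0 of the 69 genes had an adjusted p under 0.05, against 1.37% of all tested probe sets. The smallest adjusted p was 0.0576, for petA. At an unadjusted p under 0.05 there were 14 genes, or 20.3%, against 12.5% of all tested probe sets. Of these, 12 were lower in C24-LUC (17.4%, against 7.07%) and 2 were higher (2.90%, against 5.40%). C24-LUC lay below all 4 Col-LUC arrays in 25 genes (36.2%, against 20.8%) and above them in 9 (13.0%, against 24.9%). The median over the 69 was -0.07. Over the 25 genes below all Col-LUC arrays it was -0.55, and these ranged from -1.20 to -0.09.

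The genes farthest from Col-LUC lay on both sides of it. petG, for a small subunit of cytochrome b6f, had a signal of 1066 in C24-LUC against 441, 382, 298 and 355 in Col-LUC, a difference of 1.54 ± 0.40 or 2.92-fold (limma adjusted p = 0.159). rpoB, the beta subunit of the RNA polymerase, had 1707 against 483 to 873, a difference of 1.38 ± 0.32. rpl20, a ribosomal protein, had 1268 against 2738, 2219, 3843 and 3062, a difference of -1.20 ± 0.28 (limma adjusted p = 0.115). ndhK and ndhJ, neighbouring NDH genes, had 746 and 1067 against Col-LUC ranges of 1063 to 2206 and 1363 to 2529, differences of -1.11 ± 0.39 and -0.93 ± 0.33. ndhC, transcribed with them, had 7798 against 6700 to 7036 and so lay above Col-LUC.

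Genes below all Col-LUC arrays fell into 12 runs along the plastid genome. The longest held 8 genes in a row, from psaI through ycf4, cemA, petA, psbJ, psbL and psbF to psbE, each below all 4 Col-LUC arrays. The first 4 are transcribed as 1 cluster and the last 4 as another, on the opposite strand. petA, the cytochrome f gene, had a signal of 5679 in C24-LUC against 9650, 8862, 10956 and 10674 in Col-LUC, a difference of -0.82 ± 0.15 (limma adjusted p = 0.0576). cemA, for an envelope membrane protein, differed by -0.50 ± 0.14.

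In the psbE cluster the 4 genes had nearly equal differences. psbF, the beta subunit of cytochrome b559, had 6402 in C24-LUC against 9275, 11277, 11766 and 11075 in Col-LUC, a difference of -0.76 ± 0.16 (limma adjusted p = 0.0812). psbL differed by -0.74 ± 0.22, psbE by -0.73 ± 0.29 and psbJ by -0.64 ± 0.25. In sta1 against wild type, psbF differed by -0.31, psbL by -0.29 and psbJ by -0.37. Their groups overlapped only through C24-LUC, as both sta1 arrays lay below all Col-LUC arrays in each. Against Col-LUC alone they differed by -0.46, -0.44 and -0.49, and psbE by -1.15. Of these 4 genes only psbE lay outside the wild-type range. All these comparisons share the Col-LUC arrays.

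Further genes with an unadjusted p under 0.05 were ycf3, a factor of photosystem I assembly, at -0.92 ± 0.33, rps15 at -0.62 ± 0.26 and psbC at -0.47 ± 0.17. psbK and psbI, neighbours for small photosystem II subunits, were high in C24-LUC, at 8589 and 5789 against Col-LUC ranges of 4267 to 5833 and 3005 to 3885. Their errors were enlarged by the unlike sta1 arrays, with differences of 0.76 ± 0.45 and 0.75 ± 0.34. psbK and psbI were chosen for this description after their values were seen.

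**Figure D4:**
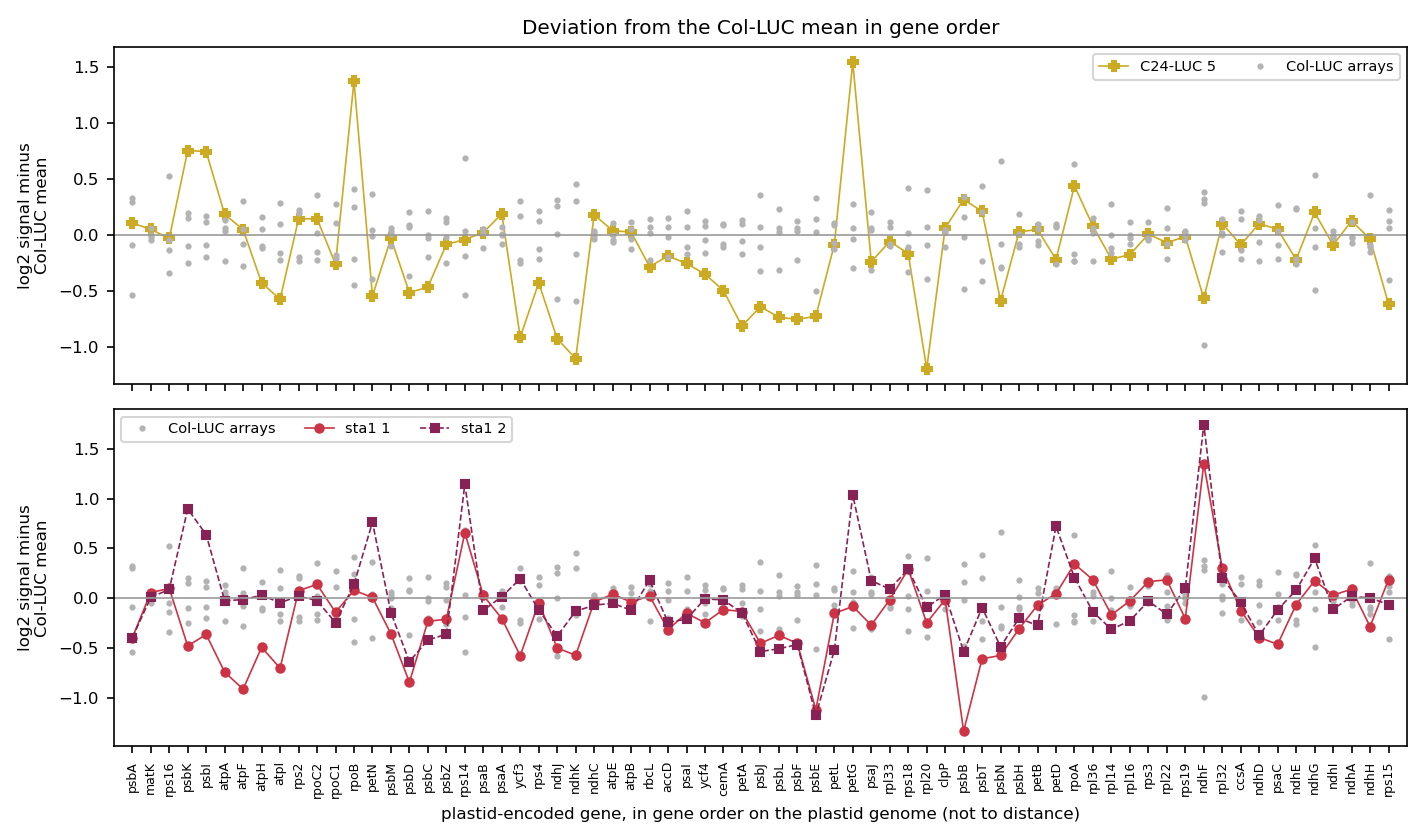
Log2 signal minus the Col-LUC mean (y axis) for the 69 plastid-encoded genes in gene order along the plastid genome (x axis, not to distance), for C24-LUC (upper panel) and both sta1 arrays (lower panel), with the 4 Col-LUC arrays as grey dots. The upper panel shows the 8 genes from psaI to psbE below all Col-LUC dots, and the lower panel shows psbK to atpI parting between sta1 1 and sta1 2.

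Here too the count depended on Col-LUC 1. Without it 7 of the 69 genes had an adjusted p under 0.05 in C24-LUC (10.1%), against 3.09% of all tested probe sets. Lower were psbE (-0.90, limma adjusted p = 0.0388), psbF (-0.83, 0.0203), psbL (-0.84, 0.0469), petA (-0.83, 0.0439) and ndhJ (-1.12, 0.0315). Higher were rpoB (1.51, 0.0422) and rpoA (0.65, 0.0487). Over all alternatives the adjusted p ran from 0.0252 to 0.162 for petA, from 0.0203 to 0.213 for psbF and from 0.0351 to 0.263 for rpoB.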

How the data were processed

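Per the labels, total RNA was labelled with biotin and hybridised to 1-colour ATH1 arrays. The deposited intensity values are MAS5 signals per probe set, which the authors scaled to a target of 500 on each array, per the labels. No source used here gives a software version for MAS5. Array medians ran from 207.8 to 215.8. Precision is limited by how few arrays there are.

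After 64 control probe sets were left out, signals under 50 were set to 50 and converted to log2. The 15673 probe sets that reached 100 on 2 or more arrays entered linear models in limma (version 3.58.1, under R 4.3.3), with lmFit and then eBayes, its variance prior following intensity. P-values were adjusted by Benjamini-Hochberg over all of them, with a threshold of 0.05. The procedure was tested on simulated data. Genes were named through the platform annotation and RefSeq's TAIR10.1 gene table; as the files name no build, no coordinates are given. The members and lists were chosen with earlier results of these data known. Named were, per group, the brightest member and the 2 with the smallest p, members with an unadjusted p under 0.05, and the 5 largest differences in C24-LUC. Floors, filters, normalizations, array weights, blocks and left-out arrays were tried as alternatives. Sequences were not used here.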

Additional observations from a re-analysis of the deposited data

Results flagged for a closer look

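In 6 of 69 plastid-encoded genes 1 Col-LUC array stood far from the other Col-LUC arrays, where chance flags about 1 in 20 groups, or 3.45 of 69. Col-LUC 1 was high in rpoA, at a signal of 9854.6 against 5390.3 to 5631.2, in rps3, at 8281.5 against 7374 to 7471.6, and in ndhH, at 1571.2 against 1104.3 to 1153.8. Col-LUC 2 was low in ndhF, at 54.5 against 131.3 to 140.7, in petD, at 258.9 against 325.4 to 331.4, and in clpP, at 8907.6 against 9774.2 to 9926.8. A control for 5S rRNA that entered no comparison was 3.50-fold higher in sta1 than in wild type, with both sta1 arrays, at 214.7 and 399, above all wild-type arrays, at 50.4 to 181.9.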

How the results depend on the processing

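Under the alternatives, 636 values of single plastid genes kept their direction, and their side of the threshold where a p-value was computed. A further 21 passed the threshold and 13 changed sign. Of group medians, 374 moved by less than the spread of the Col-LUC arrays and 14 by more. These counts overstate stability. A floor of 20, other filters, no intensity trend and all probe sets of the members cannot change a plastid gene's difference. In sta1 against wild type, leaving out C24-LUC and taking Col-LUC alone as wild type are the same fit. In sta1 against wild type, calls over all probe sets went from 205 to 88 with no filter, to 3468 with array weights, and to 0 with chip lot as a block (2293 at an unadjusted p under 0.05, limma). Array weights called 6 plastid genes (8.7%, against 22.1% of all probe sets), with 15 at an unadjusted p under 0.05. The 6 were psbB, psbD, psbE, ndhD, ndhF and rps14, with psbE lowest (limma adjusted p = 0.00868). Against Col-LUC alone array weights called 9 (13%, against 23.6%). The alternatives for that comparison, like those for nuclear genes, were chosen after seeing the data. In C24-LUC against Col-LUC, no filter gave 392 calls, with 7 plastid genes at an unadjusted p under 0.05, and array weights gave 400 calls, 3 of them plastid genes (4.35%, against 2.55%). The photosystem I median was -0.035 after quantile normalization. With the lot block the large ribosomal subunit's median was -0.12, rpoC2 was -0.30 and rpoA -0.36. The replicate block, with numbers that the labels do not tie to a shared batch (r = 0.11 over 2 shared numbers), gave 0 calls (2198 at an unadjusted p under 0.05, limma), 5 plastid genes at an unadjusted p under 0.05, a photosystem I median of -0.038, rpoC2 at -0.045 and rpoB at 0.00925. With Col-LUC alone as wild type the ATP synthase median was -0.30 and rpoB 0.11. For sta1 1 set against Col-LUC 1 alone, medians were -0.022 for photosystem I, -0.084 for cytochrome b6f and -0.47 for the ATP synthase, and petD was -0.056, rps14 -0.030, rpoC2 -0.22 and rpoA -0.29. ATPC2 turned negative in several alternatives, at -0.023 with array weights, -0.074 with the replicate block and -0.038 with Col-LUC alone. The lot block leaves only Col-LUC 1 to compare with sta1. The cause of the other shifts was not tested.

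Leaving out 1 array at a time gave 0 to 1382 calls in sta1 against wild type, 0 to 4 of them plastid genes, and 63 to 482 in C24-LUC, 0 to 7 of them plastid genes. Against Col-LUC alone it gave 0 to 12 plastid genes. Medians ran from -0.22 to -0.062 for photosystem I, -0.025 to 0.37 for cytochrome b6f, -0.50 to -0.041 for the ATP synthase and -0.15 to 0.044 for the large ribosomal subunit, rpoC2 from -0.054 to 0.11 rpoB from -0.35 to 0.11 and ATPC2 from -0.27 to 0.38. Each plastid gene has 1 probe set, so using all probe sets changed nothing, and the lot block was not run for C24-LUC.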
